A study of Mus musculus with 20 samples.

Results

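The regions described here were GATA6 binding sites of differentiating mouse ES cells that the study's deposited categories place in 3 classes at once: Transient GATA6 binding, ectopic binding of pluripotency TFs (PTFs), and no SOX17 binding. They numbered 756 of the 42403 GATA6 regions (1.78%), which is 4.64% of the 16285 Transient regions and 10.7% of the 7038 regions with ectopic PTF binding. All values that chose them were ChIP-seq values: the GATA6 cluster came from k-means over the GATA6 time course, and the PTF and SOX17 classes came from peak calls. ChIP values were not used here, and the measure reported below is chromatin accessibility (ATAC-seq), which did not enter the choice. The categories are given without a numerical limit. Regions close to a peak-call or cluster limit were not singled out, so some regions may lie just inside or just outside the choice.

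KH2 ES cells (C57BL/6 x 129/Sv) carrying a doxycycline-inducible Gata6 cassette were sampled as d0 (3 samples, no doxycycline) and, with 1 µg/mL doxycycline, as 8 h, 16 h, d1 and d2 (3 samples each) and d4 (2 samples). XEN cells (3 samples), wild-type extraembryonic endoderm cells of a CD1 background, were neither induced nor given LIF. ES cells grew on mouse embryonic fibroblast feeders in serum and LIF. The study's methods describe adsorbing feeders away for RNA-seq and ChIP-seq, and their ATAC-seq section does not name that step. The groups follow the sample titles. The treatment labels name 16, 24, 48 and 72 h of doxycycline for the groups titled 8 h, 16 h, d1 and d2, and 96 h for d4, as its title does. Every induced group carries the same transgene, so the time course follows forced expression of GATA6 in a line derived in culture, and the labels do not say which clone gave which library. Cell identity could not be checked against expression markers, since the values are accessibility at binding sites.

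Pioneer TFs bind their motifs in DNA that is wrapped around nucleosomes. GATA6, a zinc-finger factor of the GATA family, is the early driver of the primitive endoderm (PrE), the extraembryonic lineage that forms beside the pluripotent epiblast, and SOX17 acts soon after it. OCT4, a POU-domain factor, and SOX2, an HMG-box factor, bind side by side at composite OCT:SOX motifs and, with the orphan nuclear receptor ESRRB, hold the pluripotent state. Ectopic PTF binding means that OCT4, SOX2 or ESRRB peaks appear at a site during induction although they were not called there in undifferentiated cells.

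The following stretches of the mm10 plus strand, written 5′ to 3′, show the DNA at 9 of the regions named below. Capitals mark the best-scoring GATA6 and OCT:SOX matches of the region, as positioned by the authors' FIMO scan, with 8 bases of flank on either side. The first pair show a GATA6 and an OCT:SOX match close together, with centres 13 and 21 bp apart. The Esrrb matches share the base at which they meet and lie 261 and 274 bp from the GATA6 summit, those of Shank2 18 and 39 bp. The Ksr2 stretch has its OCT:SOX match 3 bp from the GATA6 summit. The Adam32 and Arid5b stretches hold the highest OCT:SOX scores (17.4 and 17.3) among regions with recovered reads, and the Zfp36l1 stretch holds the highest GATA6 score (15.2). The Klf4 stretch lies in a gene of naive pluripotency, and the Rgl1 stretch belongs to a region with a GATA6 match (score 13.6) but no OCT:SOX match.
Esrrb intron, chr12:86403821-86403863: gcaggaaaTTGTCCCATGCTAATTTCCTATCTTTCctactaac
Shank2 intron, chr7:144298091-144298141: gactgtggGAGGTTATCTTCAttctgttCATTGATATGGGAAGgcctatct
Ksr2 intron, chr5:117749332-117749460: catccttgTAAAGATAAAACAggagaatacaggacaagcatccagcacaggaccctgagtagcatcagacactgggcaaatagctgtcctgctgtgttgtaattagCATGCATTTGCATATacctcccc
Adam32 intron, chr8:24843090-24843143: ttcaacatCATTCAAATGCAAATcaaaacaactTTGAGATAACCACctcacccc
Arid5b intron, chr10:68256047-68256092: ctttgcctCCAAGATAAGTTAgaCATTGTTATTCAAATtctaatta
Celf6 promoter, chr9:59578027-59578082: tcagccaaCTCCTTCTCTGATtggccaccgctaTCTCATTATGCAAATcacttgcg
Klf4 intron, chr4:55529416-55529507: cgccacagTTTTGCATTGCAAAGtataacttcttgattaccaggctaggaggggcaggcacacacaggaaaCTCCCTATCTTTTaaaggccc
Rgl1 intron, chr1:152687830-152687858: agtcctcaGGTCTTATCTGAGacataaat
intergenic, nearest to Zfp36l1, chr12:79971752-79971780: catatggcTTTCTTATCTCCCttatctgg

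GATA6 matches were found in 665 of the 756 regions (88.0%), against 89.7% of all GATA6 regions and 92.1% of the 8937 Transient regions with neither PTF nor SOX17. The best match had a score with quartiles of 8.31 and 12.3 and its centre lay a median of 51 bp from the GATA6 summit. OCT:SOX matches were found in 567 regions (75%), between the 65.8% of the Transient regions without PTF and the 94.2% of the 3961 Transient regions already bound by PTFs at d0 (neither class with SOX17). Among the 589 Early&Constant regions with ectopic PTF and no SOX17 the share was 82.0%. The median OCT:SOX score of the ectopic Transient regions was 8.42, against 10.9 in the Transient regions bound at d0 and 8.17 over all regions, and 60 regions (7.94%) were in the highest score class of the deposited table, against 27.4% of those bound at d0. SOX17 matches were present in 58.2% of the regions, against 69.2% of all regions, which include those with SOX17 binding. In the other classes without SOX17 they were in 54.7% without PTF, 62.6% in the Early&Constant ectopic class and 73.8% with PTF at d0. ESRRB matches were present in 33.3% of the regions, against 36.3% of all regions. Regions differed in width (median 516 bp here, 445 bp without PTF, 642 bp with PTF at d0, 637 bp in the Early&Constant class), and a wider region has more room for a match.

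**Figure D1:**
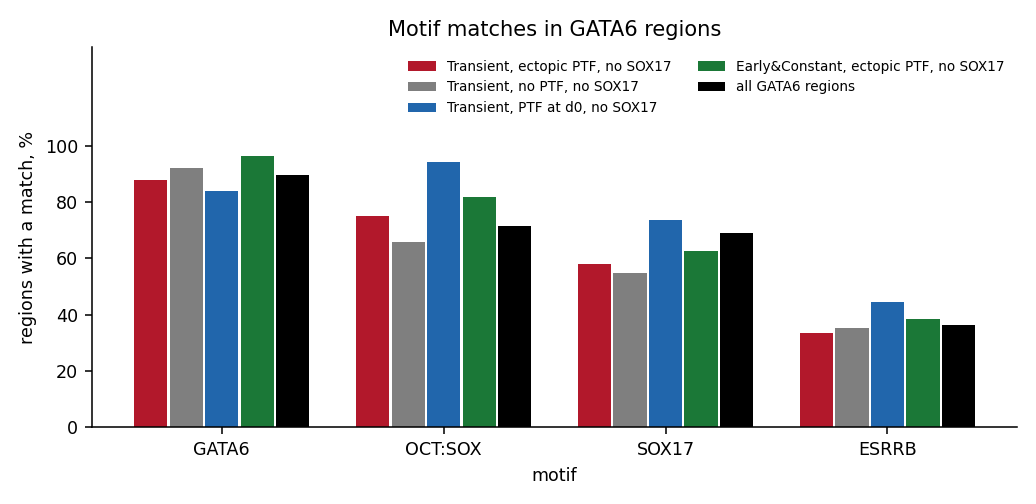
Percentage of regions (y axis) with at least 1 match to each motif (x axis) in the Transient regions with ectopic PTF and no SOX17 (red), 3 related classes and all GATA6 regions. For OCT:SOX the red bar (75%) stands between the Transient regions without PTF (65.8%) and those bound by PTFs at d0 (94.2%).

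Windows of 200 bp centred on the GATA6 summit, which remove the difference in width, were searched on both strands for short strings. The octamer ATGCAAAT, the classical POU recognition sequence, was present in 69 of the 756 windows (9.13%), against 2.99% of all 42403 windows, 3.11% of the Transient windows without PTF, 5.09% of the Early&Constant ectopic windows and 9.21% of the Transient windows bound by PTFs at d0. With any base at the fifth position, ATGCNAAT, the shares were 17.2%, 5.71%, 5.92%, 9.68% and 16.7% in the same order, and this count includes the octamer itself. Of the printed stretches, those of Esrrb, Ksr2, Adam32 and Celf6 hold ATGCNAAT, and the latter 3 hold the full octamer. In Esrrb it lies in the OCT:SOX match, 274 bp from the summit and so outside the window of 200 bp. The GATA core AGATAA went the other way: it was in 51.5% of the windows, 54.3% of all windows, 61.9% without PTF, 73.3% in the Early&Constant ectopic class and 36.6% with PTF at d0. AACAAAG, a form of the core of SOX sites, was in 5.56% of the windows. It was in 12.4% of all windows, which include regions with SOX17 binding. In the other classes without SOX17 it was in 8.44% without PTF, 8.49% in the Early&Constant ectopic class and 14.0% with PTF at d0. AAGGTCA, the extended site of ESRRB, was in 7.14%, against 7.03% of all windows. The windows had a median G+C content of 46.0%, against 45.5% over all regions, so that base composition was close to that of all regions. These strings describe the DNA, and whether any of them is bound was not tested.

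By GENCODE annotation (mm10, at the GATA6 summit), 333 regions lay in introns (44.0%), 322 between genes (42.6%) and 77 within 1000 bp of the start of a protein-coding transcript (10.2%, against 6.57% of all regions and 3.84% of the Transient regions bound by PTFs at d0). The remainder comprised 10 coding exons, 8 untranslated regions and 6 noncoding exons. The summit was a median of 22732 bp from the nearest coding start. Of the regions, 31 (4.10%) had another region of the same kind within 10 kb, against 2.38% of the 589 Early&Constant ectopic regions. The larger Transient classes without PTF and with PTF at d0 had 16.3% and 12.6%, and a larger class has more regions to meet. Some other GATA6 region lay within that distance of 376 regions (49.7%), against 52.1%, 45.8% and 47.8% in these classes. Genes that were nearest to at least 3 of them were Hs6st1, a heparan sulfate 6-O-sulfotransferase (4 regions), and Adgrl2, Klf5, Nucks1 and Plxna2 (3 regions each).

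In the deposited ES cell chromatin classes 146 regions were poised enhancers (19.3%, against 14.6% of all regions), 143 facultative heterochromatin (18.9%, against 22.3%), 116 unmarked chromatin (15.3%), 102 primed enhancers (13.5%), 87 promoters (11.5%, against 6.88%), 84 constitutive heterochromatin (11.1%) and 78 active enhancers (10.3%). The poised share was 23.6% in the Transient class without PTF, 13.6% in the Transient class bound at d0 and 8.66% in the Early&Constant ectopic class. The promoter share was 7.83%, 6.01% and 6.62% in the same order. Before induction 422 were classed as closed (55.8%), 279 as moderate (36.9%) and 55 as accessible (7.28%), close to the 56.1% closed, 39.2% moderate and 4.65% accessible of the Transient regions without PTF. In the deposited classes of GATA6 ChIP after Oct4 knockdown, GATA6 binding was lower at 140 of the 756 regions (18.5%), higher at 1 and unchanged at 615. The share lower was 6.25% over all regions, 3.58% in the Transient class without PTF, 6.69% in the Transient class bound at d0 and 23.6% in the Early&Constant ectopic class. That class rests on GATA6 and OCT4 status as the choice of regions does, so the shares are a description.

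Accessibility is given in RPM, the reads in a region relative to the sequenced total of its library, as the authors' average per group. In bulk cells, a region open in fewer cells and a region less open per cell cannot be told apart. Over the 756 regions the median level in undifferentiated cells (d0) was 0.0901 RPM, followed by 0.0879 at 8 h, 0.112 at 16 h and 0.146 at d1. It reached 0.186 RPM at d2, and stood at 0.0985 RPM at d4 and 0.0869 RPM in XEN cells. The median thus peaked at d2 and was back near its starting level at d4. The highest of the 6 KH2 values was the d2 value at 529 of the regions (70.0%), the d1 value at 131, the d4 value at 29 and the d0 value at 3. Over all GATA6 regions 45% had their highest value at d2 and 28.0% at d4. The d2 share was 80.5% in the Early&Constant ectopic class and 37.0% in the Transient class without PTF, so a peak at d2 is not particular to the ectopic Transient regions. In the Transient regions bound by PTFs at d0 25.4% had it at d0 and 40.6% at d1.

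An average has no replicate error, so changes against d0 were counted by size alone, on the log2(RPM + 0.03) scale, which understates changes of low regions. At d1 38 of the 756 regions were past 2-fold higher and 0 lower than at d0 (all regions: 4.55% higher and 0.00707% lower). At d2 284 were higher (37.6%) and 1 lower, with 36.8% of all regions higher and 1.41% lower. By d4 39 were higher (5.16%) and 15 lower (1.98%), where 31.0% of all regions were higher and 7.27% lower. In XEN cells 11 were higher (1.46%) and 49 lower (6.48%), where 27.7% of all regions were higher and 8.83% lower. On this scale the share gained at d2 was near that of all GATA6 regions, and the share still gained at d4 and in XEN cells was below it. Centring each column on its median also takes out a change shared by all regions. After it, 39 regions were higher at d2 (5.16%, against 13.1% of all regions) and 28 lower (3.70%, against 13.9%). Both shares were then below those of all regions. At d4 the centred counts were 2 higher (0.265%, against 15.8%) and 100 lower (13.2%, against 16.4%). In XEN cells they were 2 higher (0.265%, against 14.4%) and 155 lower (20.5%, against 17.8%). With quantile normalisation 28 were higher at d2 (3.70%, against 11.1%).

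From the averages, the whole reads of 16 libraries were recovered at 24753 of the regions, among them 438 of the 756, and these allow a look at replicate error. The recovered regions are set by how many digits the table kept, which follows its order: they come from 12 chromosomes, and none of the 318 others could be tested. The d0 average could not be resolved, so 8 h served as the baseline. The XEN average gave 2 libraries, where the labels list 3 samples. Letters given to libraries are arbitrary. The reads summed over recovered regions differed between libraries of a group, from 2794 to 5141 RPM at 8 h. They also differed between groups, with 6847 to 9757 RPM at d2 and 6208 to 6533 RPM at d4, both above every 8 h library. The second XEN library had 43.3 M reads and a median of 4 reads per region of this class, against 15 to 45.5 in the other libraries.

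The median over the 438 regions was 0.103, 0.122 and 0.0712 RPM in the 3 libraries of 8 h, 0.155, 0.110 and 0.0888 RPM at 16 h, and 0.122, 0.202 and 0.144 RPM at d1. At d2 it was 0.177, 0.207 and 0.199 RPM, at d4 0.1005 and 0.112 RPM, and in XEN cells 0.0832 and 0.0923 RPM. All 3 libraries of d2 stood above all 3 of 8 h, the lowest d1 library was level with the highest of 8 h, and both d4 libraries lay inside it. In group means the level was 0.0989 ± 0.0258 RPM at 8 h (SD, n = 3), 0.194 ± 0.0156 RPM at d2 (SD, n = 3) and 0.106 ± 0.00829 RPM at d4 (SD, n = 2). Each library was then set against the median of all regions in it, which removes differences in library total and any change shared by all regions. On the log2 scale that median rose by 0.78 from 8 h to d2 and by 0.52 from 8 h to d4. The median of the regions of this class rose by 0.82 and 0.10. Relative to all regions, they stood 0.11 to 0.22 higher at 8 h and 0.27 to 0.28 higher at 16 h. They stood 0.28 to 0.43 higher at d1 and 0.16 to 0.29 higher at d2. They then stood 0.20 to 0.30 lower at d4 and 0.35 to 0.46 lower in XEN cells. The d4 and XEN libraries do not overlap those of the other groups on this scale.

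Per kb of region, where classes of unequal width can be compared, the level at d2 was 0.371 ± 0.0369 RPM per kb (SD, n = 3), against 0.356 ± 0.0398 in the Early&Constant ectopic class, 0.218 ± 0.0123 in the Transient class without PTF and 0.206 ± 0.00471 in the Transient class bound at d0. The ectopic Transient libraries overlapped the ectopic Early&Constant ones and lay above both other Transient classes. At d4 the level was 0.20 ± 0.00849 RPM per kb (SD, n = 2), below the 0.236 ± 0.0123 of the Early&Constant class and above the 0.152 and 0.114 of the other Transient classes. At 8 h the ectopic Transient libraries (0.122 to 0.223) overlapped those of the other 3 classes, while the Transient class bound at d0 (0.199 to 0.352) lay above the Early&Constant ectopic class (0.0904 to 0.164). These are levels of 1 set of libraries, and no test was made between classes.

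**Figure D2:**
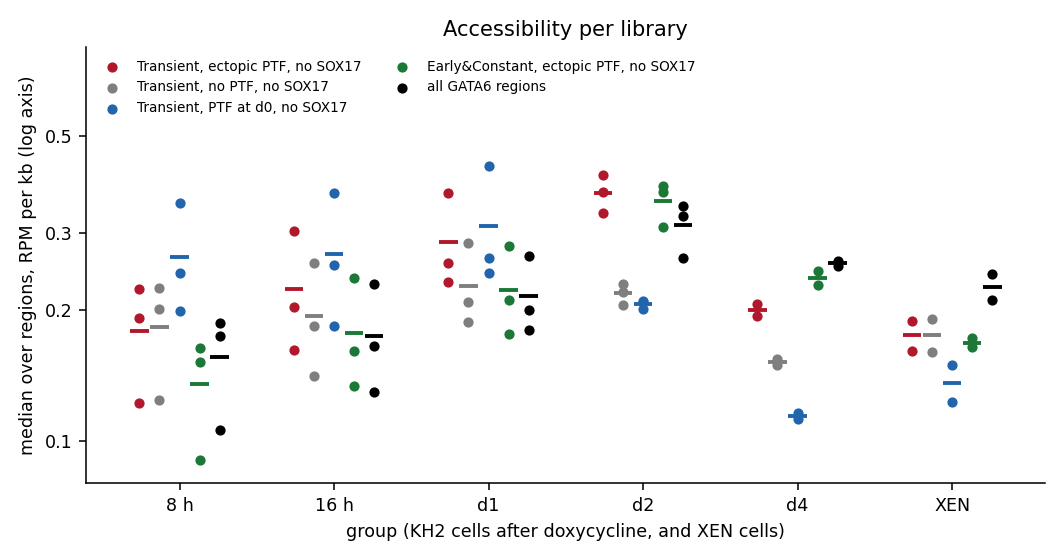
Median accessibility per kb of region (y axis, log scale) in each recovered library (points) and its mean over the libraries of a group (bars), by group (x axis), for the Transient regions with ectopic PTF and no SOX17 (red), 3 related classes and all recovered GATA6 regions. The red points rise to between 0.334 and 0.407 RPM per kb at d2 and fall to 0.194 and 0.206 at d4.

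To ask which single regions changed by more than the spread between libraries, limma was fitted over all recovered regions, and calls required an adjusted p below 0.05 together with more than 1 log2 unit of change. At 16 h 0 of the 438 regions were called (limma, 28 at an unadjusted p under 0.05, 26 of them higher), with 0.00404% of all tested regions called in each direction. At d1 32 were higher than at 8 h (7.31%, where 5.45% of all regions were) and 0 lower (0.0162% of all, and 1 region of this class at an unadjusted p under 0.05). That count rests on single libraries: it was 1 without library B of d1, 5 without library C of 8 h, 13 without library C of d1, 17 without library A of 8 h and 55 without library B of 8 h. With libraries centred on their medians it was 5 (1.14%, against 1.37% of all regions).

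At d2 172 regions were higher than at 8 h (39.3%) and 0 lower (1 at an unadjusted p under 0.05), where 36.9% of all regions were higher and 1.15% lower. On this scale the share is near that of all GATA6 regions. The median change was 0.86, against 0.67 over all regions, 0.18 in the Transient class without PTF (13.5% higher), -0.22 in the Transient class bound at d0 (2.62% higher and 7.93% lower) and 1.11 in the Early&Constant ectopic class (55.7% higher). With libraries centred on their medians, 31 of the 438 were higher (7.08%, against 14.0% of all regions) and 17 lower (3.88%, against 13.6%). With quantile normalisation 21 were higher (4.79%, against 12.0%) and 16 lower (3.65%, against 10.8%), so that under both scalings the shares were below those of all regions.

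From d2 to d4 92 regions fell (21.0%, where 8.73% of all regions did) and 0 rose (2.0% of all, and 1 region of this class at an unadjusted p under 0.05). The median change was -0.65, against -0.23 over all regions, -0.35 in the Transient class without PTF (8.84% lower), -0.64 in the Transient class bound at d0 (22.0% lower) and -0.48 in the Early&Constant ectopic class (9.68% lower). After centring 52 fell (11.9%) and 0 rose, where 4.61% of all regions fell and 5.36% rose. With quantile normalisation 31 fell (7.08%) and 0 rose, where 3.15% and 3.38% did. The d4 group has 2 libraries, and the count was 15 without library A of d4 and 15 without library B of d4. It was 36 without library B of d2 and 47 without library C of d2, all of them lower.

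At d4 28 regions were higher than at 8 h (6.39%) and 5 lower (1.14%), where 30.5% of all regions were higher and 6.59% lower. The median change was 0.19, against 0.51 over all regions, -0.13 in the Transient class without PTF, -0.85 in the class bound at d0 (40.4% lower) and 0.65 in the Early&Constant ectopic class (22.3% higher). With libraries centred on their medians 2 were higher (0.457%, against 16.2% of all regions) and 54 lower (12.3%, against 15.6%). With quantile normalisation 4 were higher (0.913%, against 16.8%) and 56 lower (12.8%, against 16.4%), so that the direction of the few called regions depends on the scaling. Without library B of 8 h there were 54 higher and 4 lower, without library C of 8 h 20 and 18, and without library B of d4 15 and 6. XEN cells against d4 gave 8 regions higher (1.83%, where 5.55% of all regions were) and 41 lower (9.36%, where 12.0% were). That count of 49 was 13 without library A of d4, without library B of d4 or without library B of XEN cells.

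**Figure D3:**
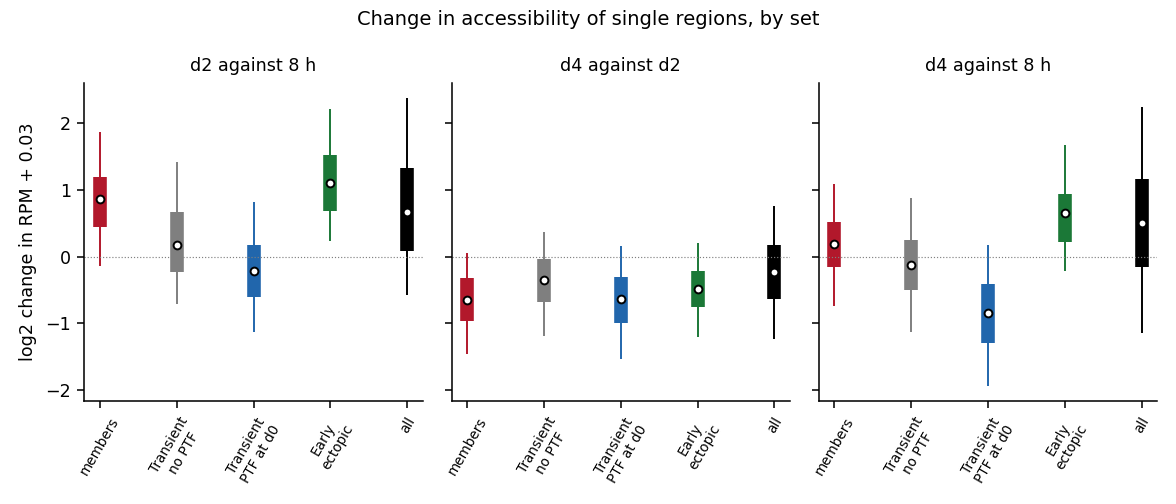
Log2 change of single regions (y axis) between 2 groups in the recovered libraries, for the ectopic Transient regions (members, red), 3 related classes and all regions. Boxes span the quartiles, lines the 5th to 95th percentiles and circles mark medians, which for the members are 0.86 from 8 h to d2, -0.65 from d2 to d4 and 0.19 from 8 h to d4.

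The regions with the largest rises to d2 were chosen by that change, and their values describe the extreme of the class. The region at chr6:137505201-137505640, whose summit lies in a coding exon of Eps8, a regulator of actin dynamics, had 0.164, 0.174 and 0.0854 RPM at 8 h, 0.182, 0.139 and 0.0627 at 16 h and 0.187, 0.324 and 0.210 at d1. It had 0.677, 1.26 and 0.997 RPM at d2, 0.487 and 0.556 at d4 and 0.0763 and 0.0462 in XEN cells. All 3 d2 libraries and both d4 libraries were above every library of 8 h, 16 h and d1. The change was 2.56 ± 0.34 (SE; adjusted p = 2.96e-12) from 8 h to d2 and 1.73 ± 0.39 (SE; adjusted p = 4.82e-05) from 8 h to d4, both by limma. It stood -2.61 ± 0.42 (SE; adjusted p = 2.13e-07) in XEN cells against d4. GATA6 binding there was in the class lower on Oct4 knockdown.

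The region at chr1:152687338-152688064 in an intron of Rgl1, which encodes an exchange factor for Ral GTPases, had 0.145, 0.216 and 0.0665 RPM at 8 h, 0.395, 0.259 and 0.0993 at 16 h and 0.233, 0.480 and 0.309 at d1. It had 0.712, 1.01 and 0.867 RPM at d2, 0.226 and 0.187 at d4 and 0.173 and 0.0923 in XEN cells. It was high at d2 and the d4 libraries were within the 8 h range or just above it. By limma it rose by 2.46 ± 0.35 (SE; adjusted p = 2.78e-11) to d2 and changed by -1.91 ± 0.39 (SE; adjusted p = 0.000222) from d2 to d4.

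The Shank2 intron region (chr7:144297926-144298257), in a gene for a synaptic scaffold protein, had 0.0375, 0.0188 and 0.0332 RPM at 8 h, 0.105, 0.0815 and 0.0313 at 16 h and 0.0880, 0.209 and 0.105 at d1. It had 0.302, 0.272 and 0.242 RPM at d2, 0.116 and 0.144 at d4 and 0.0590 and 0.0923 in XEN cells. It started from near the lowest levels and was called at d1, with 1.40 ± 0.33 (SE; adjusted p = 0.00262), at d2, with 2.34 ± 0.33 (SE; adjusted p = 1.77e-11), and at d4, with 1.43 ± 0.37 (SE; adjusted p = 0.000464), all by limma. The region at chr12:69254015-69254435 in an intron of Klhdc1 was also called at all 3 times, with 2.54 ± 0.34 (SE; adjusted p = 1.24e-12) at d2 by limma. Rises to d1 were led by these and by regions in a coding exon of Atp1a4, a sodium pump subunit, with 1.47 ± 0.33 (SE; adjusted p = 0.00145), and 501.82 kb from Rps29, with 1.42 ± 0.34 (SE; adjusted p = 0.00281), by limma. The calls at d1 of Shank2, Atp1a4 and Rps29 were lost without library B of d1, and the call of Shank2 at d4 was lost with centred libraries.

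The largest fall from d2 to d4 was at chr12:86403766-86404309, in an intron of Esrrb, the gene of the pluripotency factor ESRRB, 17.53 kb upstream of the nearest of its annotated starts. It had 0.164, 0.146 and 0.0949 RPM at 8 h, 0.214, 0.177 and 0.104 at 16 h and 0.218, 0.404 and 0.248 at d1. It had 0.468, 0.805 and 0.615 RPM at d2, 0.106 and 0.134 at d4 and 0.132 and 0.0231 in XEN cells. The d2 libraries stood above all others and the d4 libraries within the 8 h range. By limma the change was 1.99 ± 0.34 (SE; adjusted p = 5.34e-08) from 8 h to d2 and -2.11 ± 0.38 (SE; adjusted p = 2.54e-05) from d2 to d4. The region was classed closed at d0 and a poised enhancer, and GATA6 binding there was lower on Oct4 knockdown. The Ksr2 intron region (chr5:117749292-117749640), in a gene for a scaffold of the RAF and MEK kinases, had 0.0938, 0.108 and 0.0475 RPM at 8 h, 0.109, 0.0911 and 0.0993 at 16 h and 0.0842, 0.191 and 0.0994 at d1. It had 0.459, 0.538 and 0.383 RPM at d2, 0.0854 and 0.107 at d4 and 0.0451 and 0.162 in XEN cells. Its rise stood in the d2 libraries, with 2.15 ± 0.33 (SE; adjusted p = 1.93e-09) from 8 h to d2 and -1.95 ± 0.37 (SE; adjusted p = 8.69e-05) from d2 to d4 by limma. Another such region lay 265.14 kb from Plxna2, a semaphorin receptor gene, with -1.99 ± 0.38 (SE; adjusted p = 8.69e-05) from d2 to d4 by limma, and was lost as a call without library B of d4.

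Of the 4 regions that fell most between 8 h and d4, 3 were classed accessible at d0 and as active enhancers, and 1, in Jarid2, was closed. The region at chr4:139767869-139768541, an active enhancer class site in an intron of the paired-box gene Pax7, had 0.361, 0.616 and 0.347 RPM at 8 h, 0.441, 0.359 and 0.235 at 16 h and 0.264, 0.857 and 0.392 at d1. It had 0.201, 0.252 and 0.247 RPM at d2, 0.0804 and 0.0855 at d4 and 0.194 and 0.0923 in XEN cells. The d2 libraries were already below those of 8 h and the d4 libraries lower still, with a limma change of -2.02 ± 0.39 (SE; adjusted p = 2.11e-06). Regions in an intron of Zc3h12a, an RNase gene, and 68.23 kb from Gm572 changed by -1.36 ± 0.38 (SE; adjusted p = 0.00153) and -1.29 ± 0.39 (SE; adjusted p = 0.00302). In an intron of Jarid2, a Polycomb cofactor gene, a region low at all times changed by -1.17 ± 0.33 (SE; adjusted p = 0.00159) in limma, and that call was lost without library A of 8 h or without library B of d4. The Gm572 call was lost without library A of d4. Among the rises to d4, beside Eps8, Klhdc1 and Shank2, was the promoter of Smc6 (chr12:11265477-11266081), a subunit gene of the SMC5/6 complex, with 0.473, 0.809 and 0.446 RPM at 8 h, 1.04, 0.863 and 0.522 at 16 h and 0.865, 0.982 and 0.983 at d1. It had 1.24, 2.04 and 1.64 RPM at d2, 1.55 and 1.66 at d4 and 0.912 and 0.785 in XEN cells. Its d4 libraries lay within the range of its d2 libraries, and its call was lost with centred libraries or quantile normalisation.

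**Figure D4:**
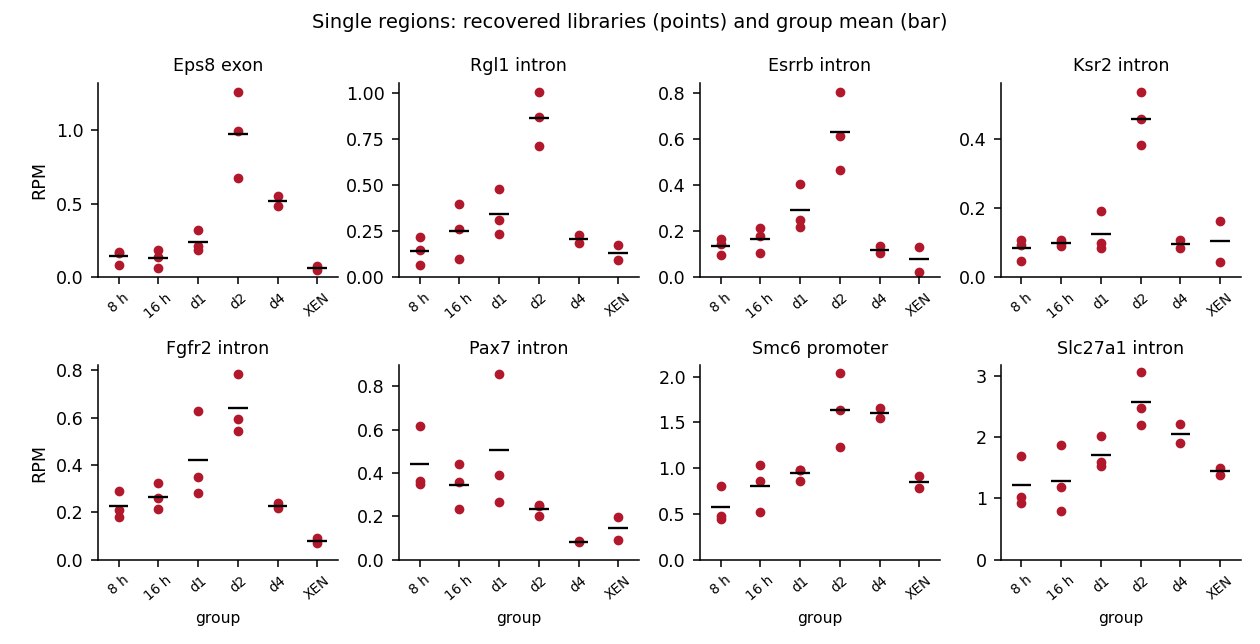
Accessibility in RPM (y axes, each from 0) of 8 named regions in every recovered library (points) with the group mean (bars), by group (x axes). The Eps8, Rgl1, Esrrb, Ksr2 and Fgfr2 regions have their highest library at d2, the Pax7 region is lowest at d4, and the Smc6 promoter stays at 1.55 and 1.66 RPM at d4.

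The 3 most accessible regions lay at or near a coding start and were in the promoter chromatin class. The region 1.53 kb from the start of Slc27a1, a fatty acid transporter gene, had 1.03, 1.70 and 0.926 RPM at 8 h, 1.88, 1.18 and 0.799 at 16 h and 1.52, 2.02 and 1.60 at d1. It had 2.20, 3.06 and 2.48 RPM at d2, 1.91 and 2.21 at d4 and 1.49 and 1.39 in XEN cells. Every library of every group was high, and the 3 d2 libraries were above all 3 of 8 h, with 1.10 ± 0.36 (SE; adjusted p = 0.00613) from 8 h to d2 by limma. At the promoter of Celf6, an RNA-binding protein gene, the change to d2 was 1.12 ± 0.36 (SE; adjusted p = 0.00511), and at the promoter of Cdh1, which encodes E-cadherin, it was 1.01 ± 0.36 (SE; adjusted p = 0.0126), both by limma. The median of all regions rose by 0.78 log2 units over the same interval. Centring the libraries takes that off and leaves these 3 changes below 1, so the calls depend on the scaling. The Cdh1 region, at chr8:106602781-106604639, had 1.07, 1.60 and 0.916 RPM at 8 h, 1.86, 2.83 and 2.53 at d2, 1.47 and 1.30 at d4 and 0.850 and 0.531 in XEN cells.

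The regions with the highest motif scores were not among the largest changes. The region with the highest OCT:SOX score, in an intron of Adam32, rose by 1.41 ± 0.30 (SE; adjusted p = 9.51e-06) to d2 by limma, from 0.0235 ± 0.0215 RPM (SD, n = 3) to 0.108 ± 0.0336 RPM (SD, n = 3). The next, in an intron of Arid5b, changed by -0.24 ± 0.28 (SE; adjusted p = 0.487) and stayed near the level of a few reads, and another, 589.07 kb from Plxna2 (score 16.4), changed by 0.70 ± 0.33 (SE; adjusted p = 0.0635). Of the 3 regions with the highest GATA6 scores, those nearest to Zfp36l1, Snx1 and Uck2 changed by -0.11 ± 0.35 (SE; adjusted p = 0.815), 1.06 ± 0.36 (SE; adjusted p = 0.0076) and 0.48 ± 0.34 (SE; adjusted p = 0.235) to d2 in limma. With the 0.78 rise of the median of all regions taken off by centring, the Adam32 and Snx1 rises are below 1 log2 unit.

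Some of the regions lay next to textbook genes of the process. Of 26 PrE genes 4 were the nearest gene of a region (5 regions), of 20 pluripotency genes 4 (6 regions) and of 14 FGF signalling genes 2 (2 regions, of which the Fgfr2 region counts in both the PrE and the FGF list). The same counts were not made over all GATA6 regions. They therefore do not show whether the class is rich or poor in regions near these genes. In the FGF pathway, which the PrE depends on, the Fgfr2 intron region (chr7:130253287-130254018), in the gene of an FGF receptor, had 0.178, 0.291 and 0.209 RPM at 8 h, 0.323, 0.259 and 0.214 at 16 h and 0.283, 0.626 and 0.348 at d1. It had 0.594, 0.543 and 0.784 RPM at d2, 0.216 and 0.240 at d4 and 0.0902 and 0.0693 in XEN cells. It rose to d2 and fell back: 1.40 ± 0.35 (SE; adjusted p = 0.000234), then -1.36 ± 0.39 (SE; adjusted p = 0.0105) to d4 and -1.24 ± 0.43 (SE; adjusted p = 0.0254) in XEN cells against d4, by limma. In an intron of Spred2, an inhibitor of RAS and ERK signalling, the change to d2 was 1.48 ± 0.34 (SE; adjusted p = 7.82e-05) by limma. Among PrE genes, a region 97.06 kb from Sox17 changed by 1.22 ± 0.31 (SE; adjusted p = 0.000297) to d2 and -1.11 ± 0.35 (SE; adjusted p = 0.0197) from d2 to d4, by limma. The median of all regions rose by 0.78 log2 units from 8 h to d2. Centring takes that off and leaves the rises of the Fgfr2, Spred2 and Sox17 regions below 1, so these calls at d2 depend on the scaling.

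For the pluripotency genes, the intron region of Klf4, a Krüppel-like factor of the naive state, had 0.0750, 0.132 and 0.0570 RPM at 8 h, 0.141, 0.0767 and 0.120 at 16 h and 0.138, 0.164 and 0.149 at d1. It had 0.227, 0.224 and 0.179 RPM at d2, 0.106 and 0.144 at d4 and 0.0728 and 0.0693 in XEN cells, and a limma change of 1.07 ± 0.33 (SE; adjusted p = 0.00372) to d2. All 3 of its d2 libraries were above the 8 h libraries. Its rise is also below 1 once centring takes off the 0.78 rise of the median of all regions, so that call depends on the scaling. The region 35.13 kb from Klf2, in an intron of Eps15l1, changed by 0.53 ± 0.35 (SE; adjusted p = 0.202) to d2 and was not called. Regions on chromosomes 2 and 14 have no recovered libraries and are given by the authors' averages. At the 3 regions nearest to Klf5, another Krüppel-like factor gene, these were 0.454 RPM at d0, 0.976 RPM at d2 and 0.639 RPM at d4 in its coding exon, 0.164, 0.206 and 0.0955 RPM 24.78 kb upstream, and 0.107, 0.164 and 0.129 RPM in its intron. The 2 regions nearest to Foxa2, an endoderm forkhead factor gene 247.14 and 167.67 kb away, went from 0.0567 and 0.0289 RPM at d0 to 0.174 and 0.0960 RPM at d2. At d4 they had 0.0786 and 0.0336 RPM. Nearest gene is a statement of position, and expression of these genes was not examined here.

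The regions varied among themselves with the class of GATA6 response to Oct4 knockdown. Where GATA6 binding was lower on knockdown, 44 of 77 tested regions rose to d2 (57.1%), with a median change of 1.10, and 31 fell from d2 to d4 (40.3%), with a median change of -0.92. Where it was unchanged, 128 of 361 rose (35.5%) and 61 fell (16.9%), with medians of 0.80 and -0.58. Over all GATA6 regions the classes stood in the same order: 61.1% of those lower on knockdown rose to d2 and 37.1% fell to d4, against 34.1% and 7.49% of those unchanged. Of the 140 regions lower on knockdown 70.7% were closed at d0, against 52.5% of the unchanged, 94.3% had a GATA6 match, against 86.5%, and 3.57% were at promoters, against 11.7%. Their median width was 601 bp, against 491 bp. The part of these features in the difference was not tested.

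By position, of the 52 tested regions within 1000 bp of a coding start, 23 rose to d2 (44.2%), 4 fell from d2 to d4 (7.69%) and 9 were higher at d4 than at 8 h (17.3%). Over all GATA6 regions in that position the shares were 43.1%, 2.93% and 28.1%. Of 180 intergenic regions 64 rose to d2 (35.6%), 42 fell afterwards (23.3%) and 7 were higher at d4 than at 8 h (3.89%), against 37.9%, 10.8% and 30.1% of all intergenic regions. The rises were thus near the general shares of each position, and more of the regions fell than in each position as a whole. By chromatin class, 10 of 42 active enhancers rose to d2 (23.8%) and 12 fell from d2 to d4 (28.6%), against 26.1% and 22.2% of all active enhancer regions, and 4 were lower at d4 than at 8 h (9.52%, against 25.3%). In the poised enhancer class 53 of 99 rose (53.5%) and 29 fell afterwards (29.3%), against 34.6% and 10.5% of all poised enhancer regions. With an OCT:SOX match 117 of 325 regions rose to d2 (36.0%) and 59 fell to d4 (18.2%), against 36.4% and 9.46% of all regions with a match. Without one 55 of 113 rose (48.7%) and 33 fell (29.2%), against 38.1% and 6.96%, so the order of the falls was the reverse of that over all regions. Among the 29 tested regions of the highest OCT:SOX class 6 rose to d2 (20.7%) and 2 fell afterwards (6.90%), against 20.8% and 17.3%. The 70 with ATGCNAAT in the window gave 23 (32.9%) and 10 (14.3%), against 26.7% and 14.8%. These shares were not tested against each other.

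The d0 classes kept their order throughout. In the authors' averages the 55 regions accessible at d0 had a median of 0.443 RPM at d0, 0.927 RPM at d2 and 0.627 RPM at d4, the 279 moderate ones 0.153, 0.275 and 0.157 RPM, and the 422 closed ones 0.0530, 0.132 and 0.0717 RPM. The class was defined on d0 accessibility, so its d0 level is no finding. Against 8 h, which did not define it, 90 of 230 closed regions (39.1%), 64 of 173 moderate regions (37.0%) and 18 of 35 accessible regions (51.4%) rose to d2. Over all GATA6 regions of these classes 40.7%, 31.2% and 30.5% did. From d2 to d4 48 closed (20.9%), 39 moderate (22.5%) and 5 accessible regions (14.3%) fell. Over all GATA6 regions of these classes the shares were 4.30%, 12.7% and 26.5%. The accessible regions thus fell less often than their class as a whole, and the closed and moderate ones more often.

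**Figure D5:**
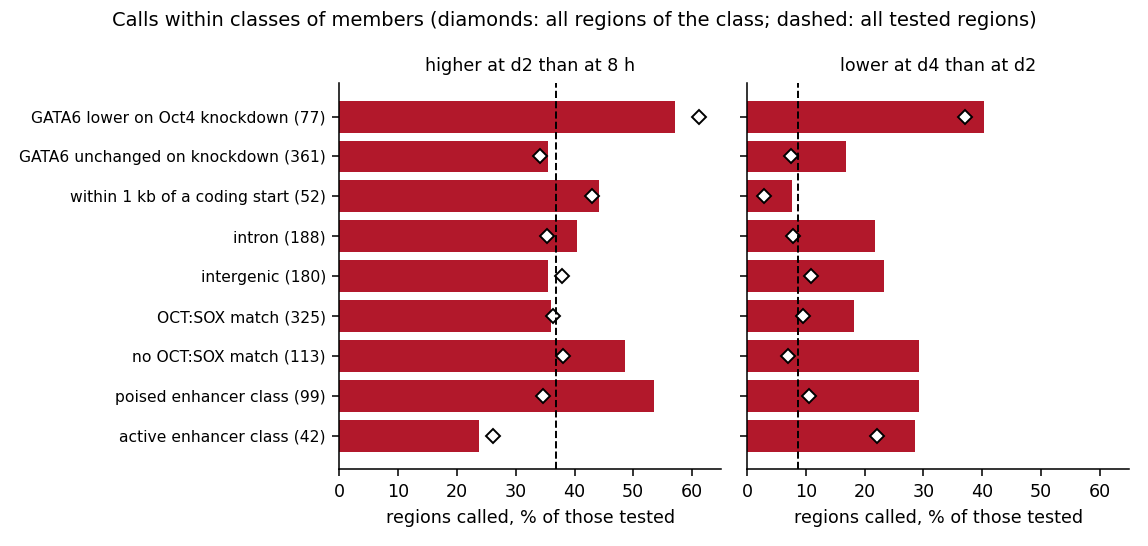
Share of tested ectopic Transient regions (x axes, percent) called higher at d2 than at 8 h (left) and lower at d4 than at d2 (right) in 9 classes (rows, number tested in parentheses), with all tested GATA6 regions of the same class as diamonds and all tested GATA6 regions as a dashed line (36.9% and 8.73%). Regions with lower GATA6 binding on Oct4 knockdown have the longest bars (57.1% and 40.3%), beside 61.1% and 37.1% over all regions of that class. Every bar on the right ends beyond its diamond, as for promoter-proximal regions (7.69% against 2.93%).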

How the data were processed

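ATAC-seq of 20 samples was analysed from the table of GATA6 regions. Per the study's methods, the authors trimmed adapters (cutadapt), used Bowtie2 against mm10 and SAMtools for filtering on duplicates and mapping quality, shifted ends for Tn5 and took short fragments as accessibility. The deposited accessibility values are in RPM, averaged by the authors over the libraries of a group and not divided by width. The lowest recovered value of every library was 1 read, so 1 read appears to have been added to each region. Motif scores are the deposited best FIMO score per region, against JASPAR matrices, and region classes are the authors' categories. A further 52 columns of other assays were not used.

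Each library adds a whole number of reads, at its own RPM per read, to an average. Reads of 16 libraries were recovered at the 24753 regions given with at least 13 digits, within 1e-07 reads, and 100% of those values came out whole. The recovered libraries were used as log2(RPM + 0.03) in limma 3.58.1 (R 4.3.3) with a mean trend, all groups fitted together, two-sided, with Benjamini-Hochberg adjustment over the 24753 regions. Both steps were tested on simulated data. Per the study's methods the libraries of a group came from separate cell cultures, so the spread between libraries is a spread between cultures.

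Annotation came from GENCODE vM21 basic (GRCm38, the assembly of mm10) at the GATA6 summit, and sequence from GRCm38.p6. Coordinates are those of the table. Named regions (chromosome 18 left out) were the 5 largest called rises to d2, 4 to d1 and 4 to d4, the 4 largest called falls from d2 to d4 and from 8 h to d4, the 3 highest in level, in OCT:SOX score and in GATA6 score, and those nearest to listed PrE, pluripotency and FGF genes. Some of these regions are not reported here. The regions, lists and tests were chosen with earlier results of these data known.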

Additional observations from a re-analysis of the deposited data

How the results depend on the processing

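No paired analysis was possible because the averaged columns carry no replicate numbers. Counts of regions called in limma moved by more than 1.5 times as follows. With a pseudocount of 0.15 RPM they were 0 at d1, 59 at d2, 5 at d4 against 8 h, 25 at d4 against d2 and 18 in XEN cells against d4 (32, 172, 33, 92 and 49 in the report), and with 0.006 RPM 59 at d4 against 8 h. Centring the libraries gave 5 at d1, 48 at d2, 56 at d4 against 8 h and 52 at d4 against d2. Quantile normalisation gave 7, 37, 60 and 31, and 1 at 16 h. A filter at a mean of 0.05 RPM and subtraction of the added read moved no count that far. Leaving out each library gave 0 to 0 at 16 h, 1 to 55 at d1, 125 to 215 at d2, 21 to 58 at d4 against 8 h, 15 to 94 at d4 against d2 and 13 to 37 in XEN cells against d4.

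Counts past 2-fold against d0 (38, 285, 54 and 60 at d1, d2, d4 and in XEN cells) were 93, 104 and 118 at d1, d4 and in XEN cells with 0.006 RPM, 0, 99, 6 and 9 with 0.15 RPM, 0, 67, 102 and 157 after centring, and 1, 48, 101 and 178 with quantile normalisation. For the regions named by a called rise or fall, 113 of these settings kept the call and 12 lost it. With a library left out 107 kept and 7 lost it, with 0 reversed. Calls at regions named only by level, motif score or nearest gene are not in these counts. Depth limits the low regions: at a median of 15 to 45.5 reads per region, and 4 in 1 XEN library, small changes were not detectable. Regions on chromosomes without recovered reads have no replicate check.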
